A study of Mus musculus with 12 samples.

Results

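The receptors for interleukins 12, 6 and 27 and for interferon gamma carry the signals that steer helper T cells towards their fates. The 9 genes described here were taken by symbol from the table of gene areas, which are the annotated spans of genes: Il12rb1, Il12rb2, Il27ra, Il6ra, Il6st, Lifr, Osmr, Ifngr1 and Ifngr2. All 9 were found, each on 1 row, among 37544 gene areas, and all 9 passed the filter on low values. The assay was DNA immunoprecipitation followed by sequencing: genomic DNA was sheared, made single-stranded and captured by an antibody to 5-hydroxymethylcytosine (5hmC, which Tet enzymes make from 5mC), an antibody to 5-methylcytosine (5mC) or control IgG. Th1, Th2, induced regulatory (iTreg), Th17 and naive T cells each gave 1 library with the 5hmC antibody and 1 with the 5mC antibody, and an IgG library and an input DNA library came from Th17 cells. The study used CD2(Cre)Tet2(f/f) mice, in which Cre under the CD2 promoter of lymphocytes acts on a floxed Tet2 gene, together with their wild-type littermates on a mixed background, but the labels do not say which genotype gave which library. The labels state no ages, culture agents or number of animals behind a library.

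Cytokine receptors of this kind have no kinase of their own. Their chains pair when the cytokine binds, and the Jak kinases held by their tails then phosphorylate Stat proteins. Interleukin 12 acts through Il12rb1 and Il12rb2 and Stat4, and with interferon gamma, which acts through Ifngr1 and Ifngr2, it promotes the Th1 fate. Interleukin 6 binds Il6ra, which recruits gp130, the product of Il6st, and signals through Stat3 towards the Th17 fate. The gp130 chain is shared with the receptors for interleukin 27 (Il27ra), leukemia inhibitory factor (Lifr) and oncostatin M (Osmr).

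RefSeq promoter sequences (GRCm38.p6) were matched by symbol for 7 of the 9 genes, all but Il12rb1 and Il27ra. The 250 bases before the annotated start are printed 5′ to 3′ for 5 genes: Il6ra, Il6st and Ifngr2, whose 5hmC was lower in the differentiated libraries, Il12rb2, whose 5hmC was close to naive in 3 of 4 libraries, and Osmr, whose 5hmC was higher. Capitals mark CpG dinucleotides, the sites at which most methylation of mammalian DNA is found.
Il6ra, chr3:89913197-89913446, minus strand: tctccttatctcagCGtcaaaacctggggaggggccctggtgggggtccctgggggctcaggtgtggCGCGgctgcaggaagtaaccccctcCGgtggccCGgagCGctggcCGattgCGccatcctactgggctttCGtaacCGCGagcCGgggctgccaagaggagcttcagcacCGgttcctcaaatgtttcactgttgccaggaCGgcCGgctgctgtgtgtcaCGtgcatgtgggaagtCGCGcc
Il6st, chr13:112463820-112464069, plus strand: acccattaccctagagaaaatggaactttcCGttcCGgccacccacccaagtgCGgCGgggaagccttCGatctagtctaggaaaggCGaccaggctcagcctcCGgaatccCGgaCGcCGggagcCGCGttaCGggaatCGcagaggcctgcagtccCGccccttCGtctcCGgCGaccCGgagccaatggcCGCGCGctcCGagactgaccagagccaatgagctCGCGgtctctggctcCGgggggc
Ifngr2, chr16:91546809-91547058, plus strand: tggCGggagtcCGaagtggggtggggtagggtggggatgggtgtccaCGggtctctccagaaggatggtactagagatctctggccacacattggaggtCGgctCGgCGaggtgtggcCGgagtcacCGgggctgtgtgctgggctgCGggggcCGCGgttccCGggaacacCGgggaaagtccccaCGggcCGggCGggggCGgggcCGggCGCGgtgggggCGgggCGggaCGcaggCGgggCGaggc
Il12rb2, chr6:67376189-67376438, minus strand: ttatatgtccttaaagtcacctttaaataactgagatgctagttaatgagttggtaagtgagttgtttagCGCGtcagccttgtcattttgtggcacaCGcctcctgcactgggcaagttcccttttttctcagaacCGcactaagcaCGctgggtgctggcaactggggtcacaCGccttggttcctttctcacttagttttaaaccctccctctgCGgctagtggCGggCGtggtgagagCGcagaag
Osmr, chr15:6874314-6874563, minus strand: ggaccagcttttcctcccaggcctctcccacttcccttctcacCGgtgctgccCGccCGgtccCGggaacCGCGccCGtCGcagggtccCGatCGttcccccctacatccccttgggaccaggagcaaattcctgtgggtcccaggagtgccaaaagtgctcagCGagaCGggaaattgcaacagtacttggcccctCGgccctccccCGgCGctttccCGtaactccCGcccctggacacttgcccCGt
These windows held 18 CpG in Il6ra, 26 in Il6st, 25 in Ifngr2, 10 in Il12rb2 and 18 in Osmr, and the median over all 32851 promoter windows of this length was 6. The Ifngr1 window held 11, and the windows at both annotated Lifr starts held 43 and 3. Osmr and Il6ra thus had the same number of promoter CpG and opposite signs of the 5hmC difference. The letters TTCNNNGAA, the core of the site that Stat proteins bind, which reads the same on both strands, were found 1 time, in the Il12rb2 window, starting 123 bases before the start, and in 7.02% of all windows. The table gives 1 value for a whole gene area, so it cannot place signal in these windows.

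The libraries differed in level. Median 5hmC signal per gene area was 9.9 to 12.0 and median 5mC signal 0.6 to 0.7, against 0.8 for IgG and 1.7 for input. Median input signal was 1.5 below and 1.8 above the median length, while median naive 5hmC signal was 7.4 below and 16.6 above it. How the authors scaled the values for length is not stated, so levels of different genes are set side by side as deposited. The read number behind each library is unknown. The 5hmC library labelled iTreg had the highest signal of all 5 at Il17a and Il17f, the Th17 cytokine genes (31.3 and 32.8, against 8.8 and 5.3 in the library labelled Th17), so these 5hmC libraries are called by their labels only and results are also given without them. The iTreg markers did not share 1 order: Foxp3 had 25.3 in the library labelled iTreg and 30.9 in that labelled Th17, Il2ra 48.6 and 55.4, and Ctla4 35.0 and 20.4, against 24.2, 39.2 and 26.3 in naive cells. The Th1 markers Tbx21 and Ifng were highest in Th1. Of the Th2 markers, Il4, Il5 and Il13 were highest in Th2, and Gata3 was highest in the library labelled iTreg (194.9, against 75.2 in Th2 and 99.6 in naive cells, with an IgG signal of 15.1). With the 5mC antibody, the library labelled iTreg had the lowest signal of all 5 at Il17a and Il17f (0.3 and 0.3). That labelled Th17 had 0.4 and 0.6, and naive cells 0.9 and 0.6, with values rounded to 0.1. The names iTreg and Th17 for 5mC libraries below are likewise labels only. Among markers of other cells, 2 of 4 B cell genes, 1 of 4 myeloid genes and 1 of 2 CD8 T cell genes had lower 5hmC in differentiated cells. The difference was at least 2-fold between the mean of the 4 differentiated libraries and naive cells. This held for 16% of all gene areas that passed the filter. It held for 45.8% of those with a naive 5hmC signal of at least 30. The marker genes were Cd79a, Cd79b, Lyz2 and Cd8a, with naive signals of 159.2, 65.5, 10.7 and 78.0. Summed 5hmC signal of the B cell genes was 100.9 to 121.3 in the 4 differentiated libraries, against 280.9 in naive cells. That of the myeloid genes was 62.3 to 80.0 in the 4 differentiated libraries, against 107.5 in naive cells. That of the CD8 T cell genes was 54.2 to 72.6 in the 4 differentiated libraries, against 158.2 in naive cells, and 0 of these 10 genes had a signal of 0. The part of such cells in the results was not tested.

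5hmC at 7 of the 9 receptor genes was higher in naive cells than in each of the 4 differentiated libraries, against 44.9% of all 28159 gene areas that passed the filter. Averaged over the 4 differentiated libraries on the log2 scale, with 0.2 added to each signal, 5 of 9 genes (Il6ra, Il27ra, Il6st, Ifngr1 and Ifngr2) were at least 2-fold lower than naive, against a background of 16%, and 0 were at least 2-fold higher (2.94%). Osmr was the member whose 5hmC was lower in naive cells than in each other library. The median log2 difference of the 9 genes was -1.03, and that of all gene areas -0.27. Each cell type has 1 library per antibody, so no test between cell types was made and the differences have no replicate check.

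**Figure D1:**
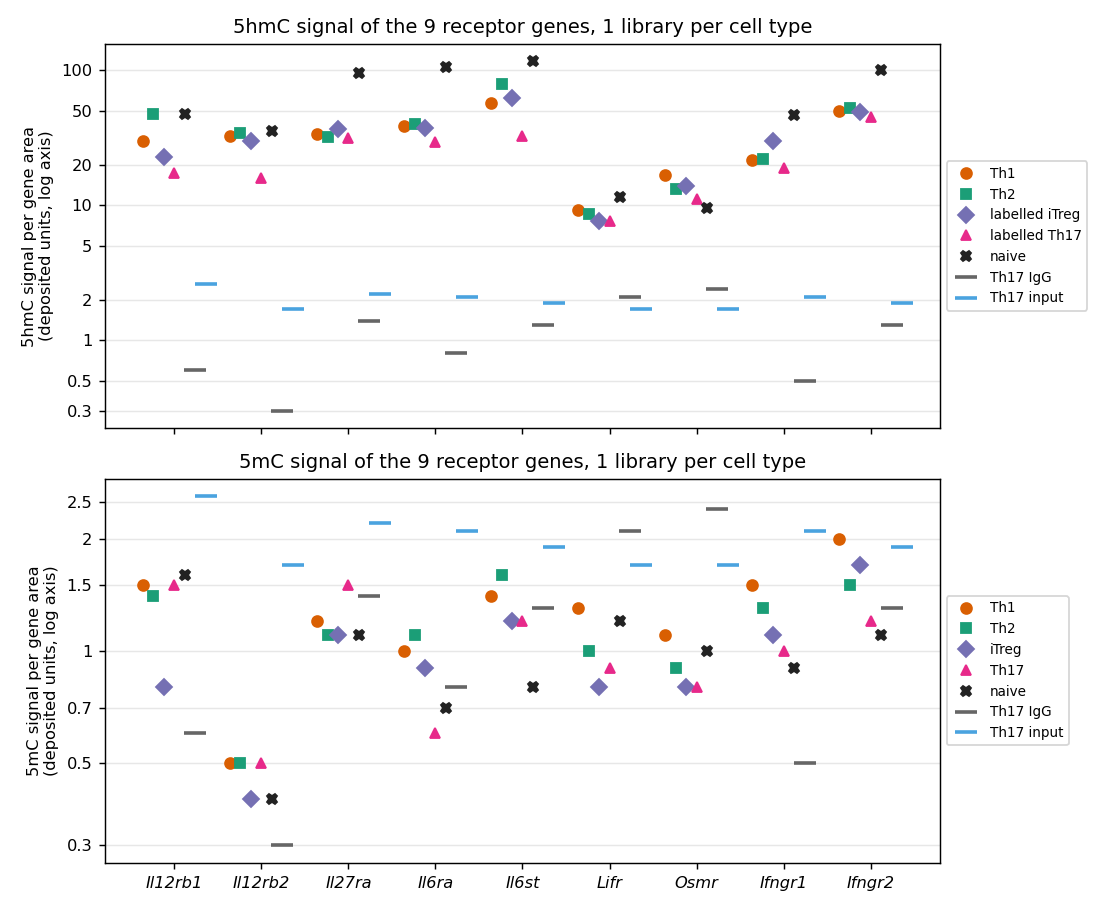
Signal of the 9 receptor genes in every library, on log axes, with 5hmC in the upper and 5mC in the lower panel; symbols are cell types (1 library each), and short bars are the Th17 IgG and input libraries. Naive 5hmC is the highest of the 5 libraries at 7 genes, Lifr and Osmr lie lowest, at 7.6 to 16.7, and 5mC stays between 0.4 and 2.0.

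Il6ra, the chain that binds interleukin 6 (chromosome 3, 89673245 to 89717083, mm9), had the lowest mean difference with all 4 libraries (-1.55, against -1.50 for Il27ra), but Il27ra was lower without the library labelled Th17 (-1.46 for Il6ra and -1.47 for Il27ra) and without both libraries in doubt (-1.43 and -1.52). Its 5hmC signal was 39.0 in Th1, 40.1 in Th2, 37.1 in the library labelled iTreg and 29.7 in that labelled Th17, against 106.6 in naive cells. The 4 differentiated libraries lay close together and well below naive, with log2 differences from -1.41 to -1.84 and a mean of -1.55. Among all gene areas, 3.72% had a mean difference as low. The naive value was 133 times the Th17 IgG signal of 0.8.

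Il6st, which encodes gp130 (chromosome 13, 113254277 to 113297067), had the highest 5hmC signal of the 9 genes in all libraries but that labelled Th17. It had 57.5 in Th1, 78.8 in Th2, 62.6 in the library labelled iTreg and 32.6 in that labelled Th17, against 116.4 in naive cells. Here the differentiated libraries spread widely, from 0.68 of naive in Th2 to 0.28 in the library labelled Th17. The mean log2 difference was -1.07, with an SD of 0.54 over the 4 libraries.

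Il27ra, the specific chain of the interleukin 27 receptor (chromosome 8, 86554184 to 86566473), had 33.5 in Th1, 32.3 in Th2, 36.9 in the library labelled iTreg and 31.5 in that labelled Th17, against 95 in naive cells. The 4 differentiated libraries lay close together, with a mean log2 difference of -1.50 and an SD of 0.10. Il6ra and Il27ra were the members at least 2-fold lower in all 4 libraries, a pattern of 6.13% of gene areas. The next gene, Rln3, 492 bp away, had 34.4, 30.9, 34.9 and 35.7 in the same 4 libraries, against 107.2 in naive cells, and thus had a similar profile. Palm3, which overlaps Il27ra by 9 bp on the other side, had 44.2 to 56.3, against 67.8 in naive cells, and reads over the shared bases may count for both genes.

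The interferon gamma receptor genes were both lower than naive, at different levels. Ifngr1, the chain that binds the cytokine (chromosome 10, 19311763 to 19330030), had 21.8 in Th1, 22.1 in Th2, 30 in the library labelled iTreg and 18.9 in that labelled Th17, against 47.0 in naive cells. Ifngr2, the partner chain that brings in Jak2 (chromosome 16, 91547338 to 91564251), had 50.4, 52.5, 49.5 and 45.5 in the same order, against 100.9 in naive cells. The differentiated libraries lay within a narrow band at Ifngr2 (SD of the log2 differences 0.09) and a wider one at Ifngr1 (SD 0.28). Mean log2 differences were near the 2-fold line at both, -1.03 for Ifngr1 and -1.03 for Ifngr2.

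The chains of the interleukin 12 receptor did not share 1 pattern. Il12rb1, which also serves the interleukin 23 receptor (chromosome 8, 73332347 to 73345322), had 29.9 in Th1, 47.5 in Th2, 22.9 in the library labelled iTreg and 17.3 in that labelled Th17, against 47.3 in naive cells. Th2 matched naive while the other 3 were lower, and the ratio of Th1 to Th2 was 0.629. Il12rb2, the chain that docks Stat4 and is known to be kept on Th1 and lost on Th2 cells (chromosome 6, 67242011 to 67326130), had 32.7 in Th1, 34.6 in Th2, 30.2 in the library labelled iTreg and 15.8 in that labelled Th17, against 35.4 in naive cells. Th1 and Th2 differed little at this gene (ratio 0.945), and the library labelled Th17 stood alone. No member differed 2-fold between Th1 and Th2, where 3.76% of all areas were higher in Th1 by that factor and 4.11% lower. Nor did any differ 2-fold between the libraries labelled iTreg and Th17, where 7.54% of gene areas were higher and 2.92% lower by that factor.

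Osmr and Lifr, neighbours on chromosome 15 with 255259 bp between them, had low 5hmC and went opposite ways. Osmr (6763576 to 6824312) had 16.7 in Th1, 13.3 in Th2, 14.0 in the library labelled iTreg and 11.2 in that labelled Th17, against 9.5 in naive cells, and 18.4% of gene areas likewise had their lowest 5hmC in naive cells. Lifr (7079571 to 7147488) had 9.2, 8.6, 7.7 and 7.6 in the same order, against 11.6 in naive cells. Their mean log2 differences were 0.52 and -0.48, both short of 2-fold. IgG signal was highest of the 9 genes here, 2.4 at Osmr and 2.1 at Lifr, and the naive 5hmC signals were 3.96 and 5.52 times this Th17 IgG, compared with at least 67.9 times at the other 7 genes.

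**Figure D2:**
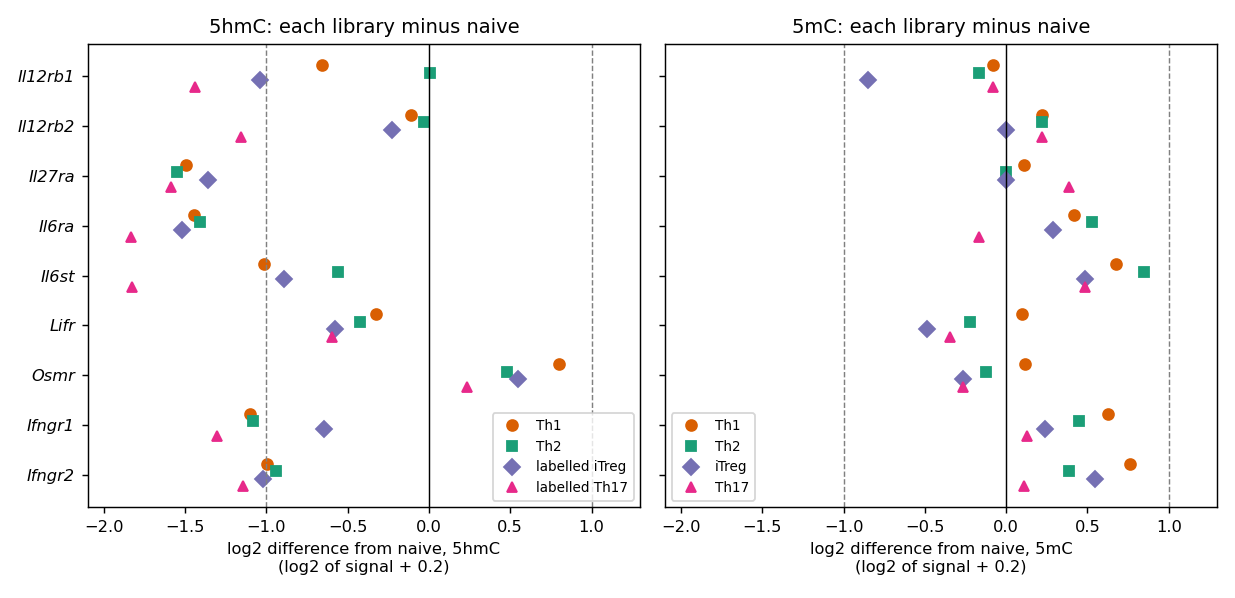
Log2 difference of each differentiated library from naive for the 9 genes, 5hmC on the left and 5mC on the right; dashed lines mark 2-fold. For 5hmC, Il6ra and Il27ra lie beyond 2-fold in all 4 libraries and Osmr lies above 0; for 5mC no gene reaches 2-fold on this scale, with 0.2 added to each signal.

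The library labelled Th17 had the lowest 5hmC of all 5 libraries at 8 of the 9 genes, against 36.3% of gene areas, and at 5 of 9 under median-ratio scaling, against 26.4%. By library, 4 members were at least 2-fold lower than naive in Th1 (background 16.1%), 3 in Th2 (14.8%), 4 in the library labelled iTreg (14.7%) and 7 in that labelled Th17 (25.6%), and 0 were 2-fold higher in any of them (4.34% of gene areas in Th1, 4.85% in Th2, 4.52% in the library labelled iTreg and 4.63% in that labelled Th17). These comparisons share 1 naive library. Without the library labelled Th17, 2 members (Il6ra and Il27ra) remained 2-fold lower in the mean, and without both libraries in doubt 3 did (also Ifngr1). The share of all gene areas was not counted for these reduced means, so these member counts have no background beside them.

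Differences were larger where naive signal was high, and 7 of the 9 genes had a naive 5hmC signal of at least 30. In the 6379 gene areas above that level, a limit chosen after the data were seen, 45.8% were at least 2-fold lower in the mean of the 4 libraries, beside 5 of those 7 receptor genes. The corresponding share was 59.1% for the library labelled Th17, beside 7 of 7. The naive value enters both quantities, so part of this slope is built in. Scaling moved these counts too. Median-ratio scaling, which sets the median ratio between libraries to 1, raised the differences from naive by 0.15 to 0.30, and then 2 members (Il6ra and Il27ra, -1.35 and -1.30) were at least 2-fold lower, against 10.1% of gene areas. Under it 6 of 9 genes (35.4% of gene areas) stayed below naive in all 4 libraries and Osmr stayed above (27.4%), while Il12rb2 lay above naive in Th1 and Th2 (0.07 and 0.12).

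**Figure D3:**
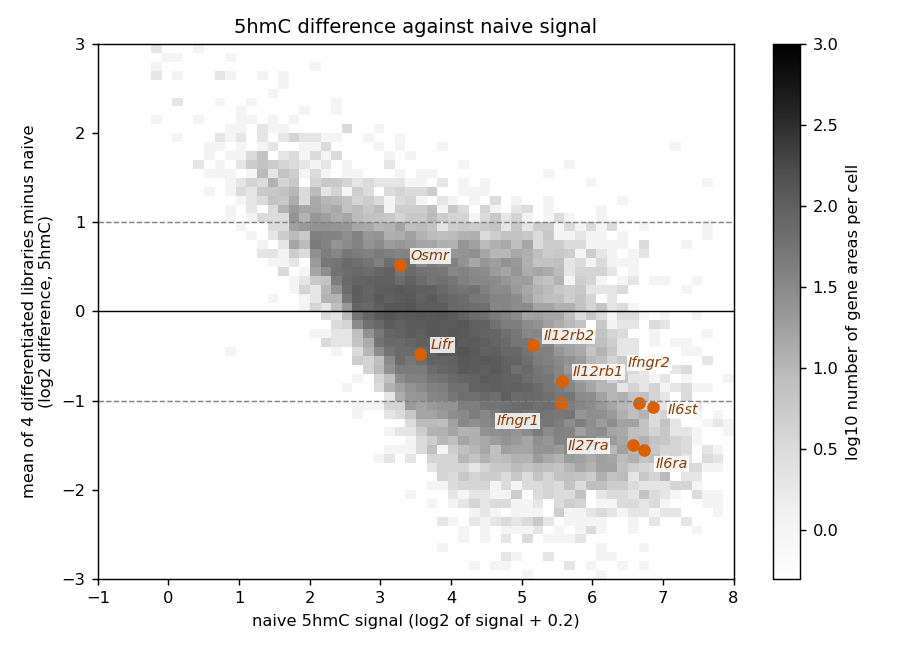
Mean 5hmC log2 difference of the 4 differentiated libraries from naive against naive 5hmC signal; grey shows 28108 gene areas that passed the filter, counted per cell (another 51 lie outside the axes), and orange points are the 9 receptor genes. High naive signal goes with larger negative differences, and Il12rb2 (-0.38) lies nearer 0 than Ifngr1 (-1.03), with naive signals of 35.4 and 47.0.

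In the 5hmC library labelled Th17 every member carried more signal than in the Th17 IgG and input libraries as deposited. The library labelled Th17 was 3.62 times IgG at Lifr, 4.67 times at Osmr and 22.5 to 52.7 times at the other 7, with the highest ratio at Il12rb2, where IgG was 0.3. Over input the ratios were 4.47 at Lifr to 23.9 at Ifngr2. Of all gene areas, 97.4% were at least 2-fold above IgG and 97.4% above input, and 0.217% and 0.0284% at least 2-fold below. With each library divided by its median, 5 members were at least 2-fold above IgG (29.2% of gene areas) and 4 above input (14.4%).

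5mC differed less between cell types. At Il6st the 5mC signal was 1.4 in Th1, 1.6 in Th2, 1.2 in iTreg and 1.2 in Th17, against 0.8 in naive cells, all 4 above naive by 1.5 to 2.0 times before 0.2 was added. Values are rounded to 0.1, and this rounding alone allows a ratio of 1.35 to 1.67 for the lower pair. Ifngr2 had 2.0, 1.5, 1.7 and 1.2 in Th1, Th2, iTreg and Th17, against 1.1 in naive cells, and Ifngr1 had 1.5, 1.3, 1.1 and 1.0, against 0.9. At these genes the Th17 values lie within rounding of naive (ratios down to 1.0).

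Il6st, Ifngr1 and Ifngr2 therefore had lower 5hmC and higher 5mC signal than naive in all 4 differentiated libraries, a combination found in 4.18% of gene areas. Naive 5mC below each other library was found in 7.27%. Under median-ratio scaling 6 genes had naive 5mC below each other library (20.2%), and Il6ra and Il27ra joined the combination, 5 of 9, against 9.89% of gene areas.

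The other 6 genes showed no common direction in 5mC. Il6ra had 1.0, 1.1, 0.9 and 0.6 in Th1, Th2, iTreg and Th17, against 0.7 in naive cells, and Il27ra had 1.2, 1.1, 1.1 and 1.5, against 1.1. Il12rb1 was lowest in iTreg, with 1.5, 1.4, 0.8 and 1.5, against 1.6 in naive cells. Its 5mC lay below naive in all 4 libraries as deposited (23.1% of gene areas) but not in Th17 under median-ratio scaling. Its Th1 and Th17 values lie within rounding of naive (ratios up to 1.0). Il12rb2 had the least 5mC of the 9 genes, 0.5, 0.5, 0.4 and 0.5, against 0.4 in naive cells. Lifr had 1.3, 1.0, 0.8 and 0.9, against 1.2, and Osmr had 1.1, 0.9, 0.8 and 0.8, against 1.0. No member was 2-fold higher or lower than naive in the mean of the 4 libraries (0.799% and 2.07% of gene areas) or in any 1 of them once 0.2 was added. Before that, Il12rb1 in iTreg was 0.5 of naive and Il6st in Th2 was 2.0 times naive. The shares of gene areas at least 2-fold lower were 2.23% in Th1, 3.12% in Th2, 4.63% in iTreg and 3.99% in Th17, and those higher were 2.22%, 1.56%, 1.33% and 1.5%. In Th17 cells 5mC signal was 0.286 to 0.682 of input at the 9 genes. With 0.2 added, it was at least 2-fold lower at Il12rb2 and Il6ra (59.7% of gene areas) and 2-fold higher at 0 members (0.508%). Without that addition, Ifngr1 and Osmr were also below 0.5 of input (0.476 and 0.471).

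Whether a receptor gene carried relatively more 5hmC than 5mC was tested across the 5 cell types with limma, after subtracting each library's own median and with cell type as a block. The median over the tested gene areas was 0.205 on this log2 scale. Calls required a difference of 1 or more and an adjusted p below 0.05. Il6st, Il12rb2, Il6ra, Ifngr2 and Il27ra were called higher in 5hmC, 5 of 9, against 12.9% of gene areas. That share is of all tested gene areas, not of those with a like 5hmC signal. The 5mC side was low at the 9 genes, 0.4 to 2.0 with values rounded to 0.1, and below input in Th17 cells. The log2 differences were 1.77 ± 0.28 for Il6st (SE, 5 cell types, limma adjusted p = 0.00163), 1.72 ± 0.21 for Il12rb2 (limma adjusted p = 0.000509) and 1.7 ± 0.28 for Il6ra (limma adjusted p = 0.00195). Ifngr2 followed with 1.37 ± 0.25 (limma adjusted p = 0.00301) and Il27ra with 1.16 ± 0.26 (limma adjusted p = 0.00815).

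Il12rb1 and Ifngr1 did not pass, at 0.60 ± 0.22 (limma adjusted p = 0.0562) and 0.58 ± 0.25 (limma adjusted p = 0.0921). Osmr had -0.20 ± 0.18 (limma adjusted p = 0.403). Lifr had -0.85 ± 0.15 (limma adjusted p = 0.00292), past the p threshold and short of a difference of 1, and 5.99% of gene areas were called lower. Of the genes at the top, Il12rb2 had the least 5mC, 0.4 to 0.5, and Il6st the most 5hmC in 4 of 5 libraries. Il27ra lost its call without the naive pair (0.85) and under median-ratio centring (0.89), where Lifr was called lower (-1.02).

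**Figure D4:**
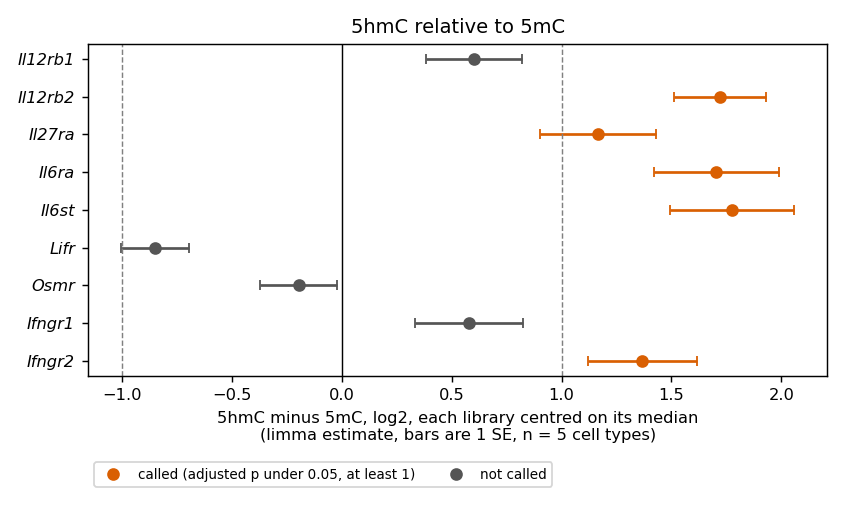
Limma estimate of 5hmC minus 5mC for the 9 genes with bars of 1 SE over 5 cell types, each library centred on its median; orange genes were called. Il6st, Il12rb2 and Il6ra lie highest, between 1.7 and 1.77, and Lifr lies lowest at -0.85.

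Some genes beside the receptors differed from naive in the same direction and others did not. Ifnar1, an interferon alpha and beta receptor chain 36571 bp from Ifngr2, had 47.7 in Th1, 42.7 in Th2, 40.4 in the library labelled iTreg and 30.2 in that labelled Th17, against 105.3 in naive cells (its IgG signal was 4.5). Like Ifngr2, Ifnar1 was below naive in each differentiated library. Its mean log2 difference was lower (-1.40, against -1.03), as was its signal in the library labelled Th17 (30.2, against 45.5). Further along the same cluster, Il10rb had 23.6 to 36.3, against 32.3 in naive cells, and Ifnar2 36.6 to 51.9, against 55.6. Il23r, the interleukin 23 receptor chain 46795 bp from Il12rb2, had 11.2, 8.4, 13.1 and 8.2 in Th1, in Th2 and in the libraries with iTreg and Th17 labels, against 10.4 in naive cells, well below Il12rb2 in every library. Serbp1, 2716 bp away on the other side, had 28.2, 37.5, 29.7 and 15.9, against 44.6, and was lowest in the same library as Il12rb2. Il31ra, whose product pairs with Osmr, lies 15935 bp from Il6st and had 24.8 to 32.1, against 27.6 in naive cells, close to naive, unlike Il6st. Rictor, 13176 bp from Osmr, had 5.2 to 9.5, against 16.7 in naive cells, the opposite direction to Osmr.

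Of the remaining neighbours, Mast3 and Arrdc2 beside Il12rb1 had mean log2 differences of -1.13 and -1.40, She and Atp8b2 beside Il6ra -0.24 and -1.04, and Samd1 beside Il27ra -1.87. Ankrd55 beside Il6st had -0.57, Tmem50b beside Ifngr2 -1.16, Egflam beside Lifr 0.32, and Olig3 and Il22ra2 beside Ifngr1 -0.65 and -0.95 (Olig3 had an IgG signal of 10.5). She, next to Il6ra, kept 42.0 to 48.0, against 53.3 in naive cells.

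The rest of the pathway was read from 4 lists by the same mean 5hmC difference. Over all gene areas, 16% were at least 2-fold lower and 2.94% higher, with a median of -0.27. Among 14 ligands, 2 were at least 2-fold lower, near that share, and 1 higher. Clcf1 and Osm, both cytokines of the gp130 family, were lowest (-1.15 and -1.05), Osm with 34.0 to 62.3, against 94.0 in naive cells. Cntf and Ifng were highest (1.32 and 0.50), Cntf with 3.8 to 8.8, against 2.3 in naive cells and 2.5 with Th17 IgG, and its mean fell short of the filter on low values. The ligand median was -0.24, close to the -0.27 of all gene areas.

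Of 10 other receptors, 1 was 2-fold lower (against 16%), with a median of -0.15. Ifnar1 and Il10ra were lowest (-1.40 and -0.45), and Lepr, the leptin receptor, and Cntfr highest (0.17 and 0.11). Il10ra resembled Il12rb1 in its order, with 49.4 in Th1, 53.4 in Th2, 32.7 in the library labelled iTreg and 19.4 in that labelled Th17, against 49.4 in naive cells.

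Of 11 kinases, Stat factors and feedback genes, 5 were 2-fold lower (against 16%) and 0 higher, with a median of -0.78. Socs3, the feedback inhibitor that binds gp130, had 54.4, 26.7, 29.4 and 6.7 in Th1, in Th2 and in the libraries with iTreg and Th17 labels, against 74.3 in naive cells. Jak2, the kinase held by Ifngr2 and Il12rb2, was highest of this list, with 65.1 in Th1, 94.8 in Th2, 30.1 in the library labelled iTreg and 25.6 in that labelled Th17, against 31.7 in naive cells, and Stat3 came next (-0.27).

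Of 8 target genes, 2 were 2-fold lower (against 16%), with a median of -0.37. Irf1, a transcription factor induced by interferon gamma, had 58.9, 38.3, 44.2 and 17.7 in Th1, in Th2 and in the libraries with iTreg and Th17 labels, against 141.2 in naive cells. Cxcl9, a chemokine of the same response, had 4.2 to 10.2, against 14.0. Nos2 and Il21 were highest (0.47 and 0.10).

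The 3 members with the widest 5hmC range were compared with 14870 gene areas of at least 3000 bp by the root mean square difference of log2 5hmC, each gene centred on its own mean, over 5 libraries. Nearest to Il6ra was Atp2a2 (0.03), with 14.8, 15.6, 15.1 and 11.5 in Th1, in Th2 and in the libraries with iTreg and Th17 labels, against 41.3 in naive cells, followed by Evl and Psmb8 (both 0.04). Nearest to Il6st were Ddx24, Magoh and Mif4gd (0.03, 0.03 and 0.04), and nearest to Il27ra were Zdhhc7, Pag1 and Pgpep1l (0.03, 0.04 and 0.05). With 5 values per gene and this many candidates, close matches describe the shape of the profile only.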

How the data were processed

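The authors deposited 1 table of signal per gene area (never negative, 1 decimal) for 12 libraries. The submitters' processing notes name CASAVA 1.7.0 and mm9. Counting, duplicate removal and scaling are not stated, so depth is unknown and no counting interval or detection floor is given. Coordinates are as deposited. Each column was assigned through the number in the title of its library, and 0 value columns were left over. Of the 37752 rows, 208 that repeated a symbol were dropped in favour of the row with the highest mean.

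A pseudocount of 0.2, the 5th percentile of non-zero values, preceded the log2 and understates differences at low signal. Counts over all gene areas used the 28159 whose mean over the 10 antibody libraries was at least 3.31, the 25th percentile. The limma 3.58.1 fit (R 4.3.3, empirical Bayes with trend, Benjamini-Hochberg over all gene areas) takes its spread from the cell types. Tested on simulated data for 5hmC minus 5mC in 28159 gene areas, it found 77 of 100 planted log2 differences of 1.5, found 93 of 100 of 3, and made 9 calls among 27959 unchanged gene areas. Python 3.11.15, numpy 2.4.6, pandas 2.3.3, scipy 1.17.1 and matplotlib 3.10.9 were also used. Alternatives covered the pseudocount, filter, scaling, block, trend and left-out libraries. The receptor genes and all lists were chosen with earlier results of these data known. Named were all 9 members, their nearest named neighbours, the interferon receptor cluster, the 2 highest and 2 lowest genes of each list and the 3 closest profiles of the 3 members with the widest range. Some genes of the fixed lists are not reported here.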

Additional observations from a re-analysis of the deposited data

Results flagged for a closer look

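At 3 receptor genes every differentiated library, as deposited, lay below naive in 5hmC and above naive in 5mC. The difference from naive thus had opposite signs with the 2 antibodies. This combination was found in 4.18% of gene areas, and under median-ratio scaling at 5 of 9 members, against 9.89%. At Ifngr1 and Ifngr2 the Th17 5mC value lay within rounding of naive. The mean log2 difference from naive was -1.07 for 5hmC and 0.62 for 5mC at Il6st, which is -1.70 between the antibodies. It was -1.03 and 0.36 at Ifngr1, which is -1.39, and -1.03 and 0.45 at Ifngr2, which is -1.48. This difference between the antibodies was not tested, since each of them has 1 naive library.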

How the results depend on the processing

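No paired analysis was possible because each group holds 1 library, for the comparisons between cell types. The limma test of 5hmC minus 5mC pairs the libraries by cell type, and without that block it also called 5 members. As deposited, 5 members were at least 2-fold below naive in 5hmC. The count was 2 under median-ratio scaling, 3 without the libraries labelled iTreg and Th17, and 2 to 6 when each library was left out in turn (2 without that labelled Th17). The share of all gene areas at least 2-fold lower was 16% as used and 10.1% under median-ratio scaling. It was 45.8% at a naive signal of at least 30, and was not counted with libraries left out. For 5mC, 1 member (Il12rb1, within rounding of naive in Th1 and Th17) lay below naive in every library and 3 above. These counts were 0 and 6 under median-ratio scaling, 5 lay above without the libraries labelled iTreg and Th17, and leaving out each library gave 1 to 3 below (3 without Th1) and 3 to 4 above. Among all gene areas as deposited, 23.1% lay below naive 5mC in every library and 7.27% above. Under median-ratio scaling 20.2% lay above. These shares were not counted with libraries left out. The share of gene areas at least 2-fold lower in 5mC was 2.07% with the filter and 3.17% without. In the 5hmC library labelled Th17, 9 members stood 2-fold over Th17 IgG and input, and 5 and 4 once each library was divided by its median. The causes were not tested. By limma, 5 members were called higher under each alternative except 2: without the naive pair and under median-ratio centring 4 were, Il27ra being lost both times, and median-ratio centring added Lifr as lower. Of 28159 gene areas, 3633 were called higher in the main fit, 3462 without the naive pair and 3298 under median-ratio centring. Called lower were 1686, 1790 and 2337 in the same order. The limits on naive signal and the limma fit without the libraries labelled iTreg and Th17 were chosen after seeing the data. Unknown depth, 1 library per group and rounding to 0.1 limit every 5mC ratio.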
